A study of Mus musculus with 29 samples.

Results

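The 10 enzymes described here carry glucose 6-phosphate to lactate in the fast muscle of the mouse. They were chosen by name, as the main muscle form of each enzyme from glucose-6-phosphate isomerase to lactate dehydrogenase, and are Gpi1, Pfkm, Aldoa, Tpi1, Gapdh, Pgk1, Pgam2, Eno3, Pkm and Ldha. All 10 were found among the 22537 genes of the count table, Pkm under its older symbol Pkm2. Messenger RNA of whole tibialis anterior muscle, the shin muscle that lifts the foot, was sequenced in male C57BL/6 mice of 6, 24 and 28 or more months (6m, 24m and 28m), none of them treated or genetically altered. A first sequencing run held 7 6m and 7 24m libraries, and a second run held 8 28m libraries and repeat libraries of the same 7 6m mice. Each age was therefore compared with the 6m libraries of its own run, and the 2 comparisons shared their 6m mice. The mice came from an ageing colony, 1 sex of 1 inbred strain, and each library held a whole muscle with its vessels, nerve and connective tissue. Fewer cells of a type and less RNA per cell cannot be told apart in such samples.

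Glycolysis splits glucose into pyruvate and yields ATP without oxygen, which fast, white muscle fibres rely on for short bursts of work. Lactate dehydrogenase then turns pyruvate into lactate and returns the NAD+ that an earlier step uses up. Most steps have several enzyme forms encoded by different genes, and adult muscle makes a muscle form in very large amounts.

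Library totals ran from 17633475 to 33499162 counts, and the enzymes had between 5208 counts (Pgk1) and 629234 counts (Aldoa) in a library, so that counting error was small beside the spread between mice. The muscle was of the fast kind by its markers: the summed level of 13 fast-fibre genes was 128658 to 218269 CPM (counts per 1000000, with library sizes scaled by the TMM factors of edgeR) and that of 10 slow-fibre genes 131 to 609 CPM. Library 24m replicate 4 stood apart. The SD over all genes of its log2 distance to the median of the other 24m libraries was 1.16, against 0.27 to 0.67 for the other 28 libraries. The first-run library of 6m replicate 4 also differed from the other first-run 6m libraries (SD 0.59), whereas the second-run library of the same mouse did not (SD 0.28). Values of the first run without these libraries are given beside the results that moved most when either was left out.

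Together the 10 mRNAs made up 4.66% ± 0.18 (SD, n = 7) of all counts in the second-run 6m libraries and 5.17% ± 0.45 (SD, n = 8) at 28m. In the first run they made up 4.85% ± 0.43 (SD, n = 7) at 6m and 4.26% ± 0.79 (SD, n = 7) at 24m, with the lowest share, 2.99%, in 24m replicate 5. Per kilobase of the principal mRNA, the scale used to rank the enzymes by level, aldolase came first. In the second-run 6m libraries Aldoa had 12542 ± 786 CPM per kilobase (SD, n = 7) and Eno3 followed with 4055 ± 249.97 CPM per kilobase. Gapdh reached 2403 ± 105 CPM per kilobase. Pgam2, with 2085 ± 120.3, and Pfkm, with 2006 ± 117, did not differ beyond their spread. The same held for Pkm, with 1667 ± 95.2, and Ldha, with 1631 ± 74.4. Tpi1 had 1195 ± 76.2 CPM per kilobase. Gpi1, with 353 ± 12.98, and Pgk1, with 164 ± 11.2, were the lowest of the 10, so the mRNAs of enzymes that act in sequence differed widely in level. The levels of Gapdh and Pgk1 can be underestimates, since much of their sequence recurs in other genes.

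Nearly all mRNA of each enzyme family came from the muscle form. In the second-run 6m libraries Pfkm held 99.8% of phosphofructokinase mRNA per kilobase, Pgam2 99.9% of phosphoglycerate mutase and Ldha 96.1% ± 0.78 (SD, n = 7) of lactate dehydrogenase, with Ldhb, the heart form, at 3.92%. At 28m the share of Ldha was 96.2% ± 0.98 (SD, n = 8) and at 24m 95.2% ± 1.19 (SD, n = 7), which were differences within the spread. Brain and liver forms (Aldoc, Pklr, Pfkl, Pfkp, Eno2) stayed under 1% of their family in all group means. Eno1 and Pgam1, the ubiquitous forms, were likewise near 0, but 65.4% and 40.6% of the 75-base windows of their mRNAs recur in transcripts of other annotated genes, and a counter that keeps only uniquely placed reads would miss those.

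At 28m, 2 of the 10 enzymes were higher than at 6m by the quasi-likelihood test of edgeR with Benjamini-Hochberg adjustment (adjusted p under 0.05) and 0 were lower. Tpi1 was 1.26-fold and Gapdh 1.2-fold higher. The estimate was above 0 for 9 of the 10, with a median log2 fold change of 0.22, against a median of 0.01 over the 12994 genes tested. The median of the enzymes was 0.12, with 9 above 0, against the first-run 6m libraries, and 0.07, with 6 above 0, once a trend over gene length and GC content was removed. Of the 12994 genes 24.3% were higher and 22.9% were lower at 28m, so 2 of 10 is no larger a share than among genes at large. All 28m mice lay above all 6m mice for 5.7% of genes and below them for 6.7%, and for 0 of the 10 enzymes.

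**Figure D1:**
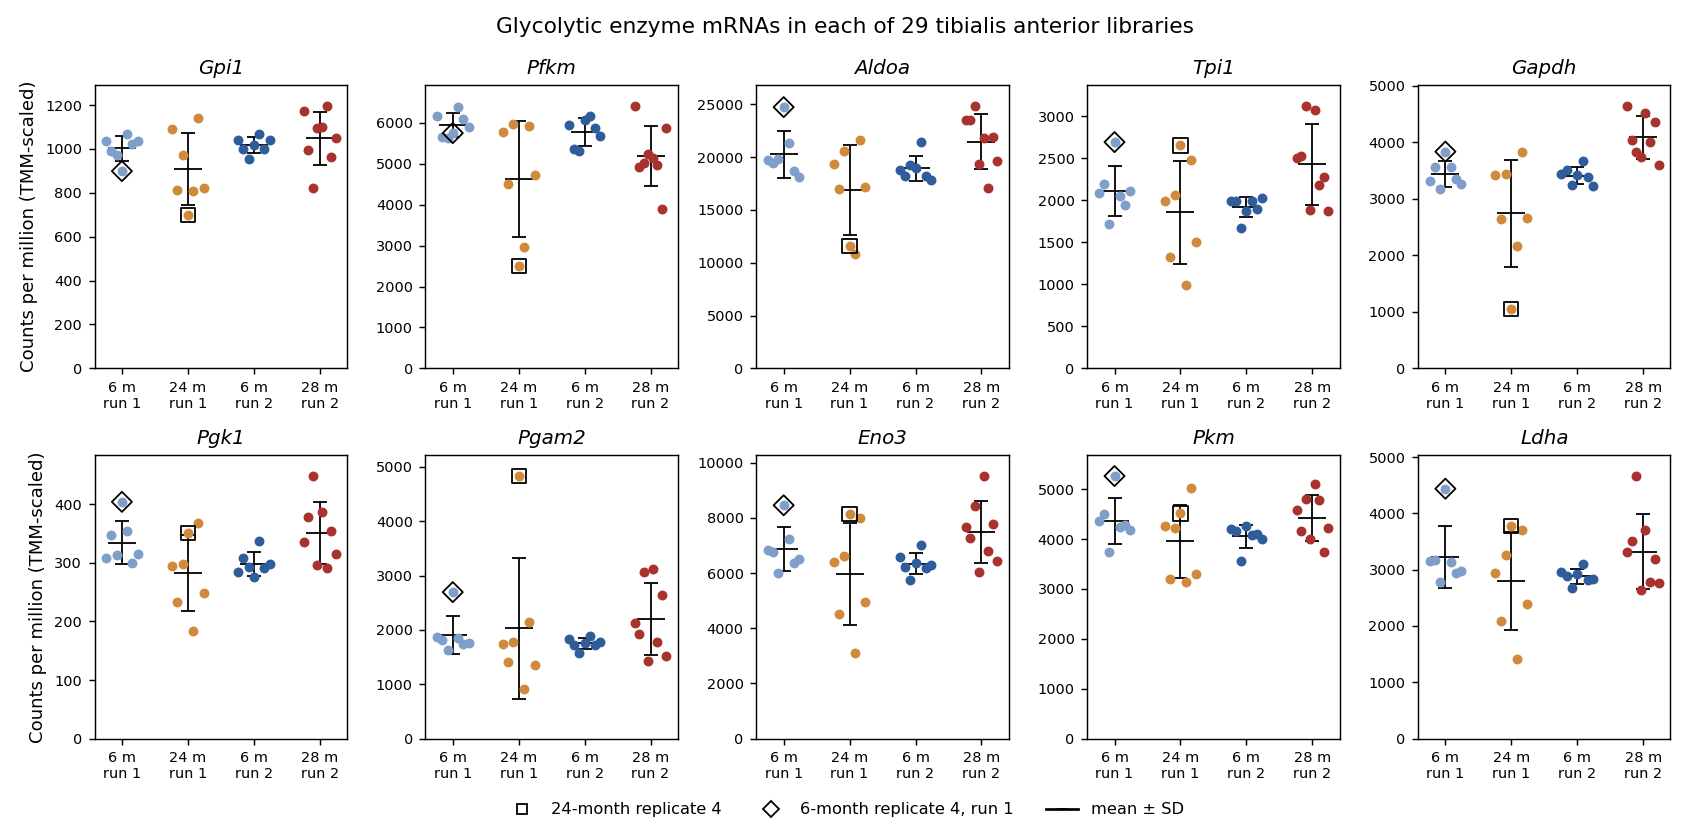
TMM-scaled CPM (vertical axes, each from 0) of the 10 enzymes in the 29 libraries, with 1 point per library and the mean ± SD per group. The 28m libraries overlap the 6m libraries of the second run for every enzyme, and 24m replicate 4 (squares) is lowest for Gapdh at 1050.2 CPM and highest for Pgam2 at 4833 CPM.

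In the upper part of the pathway none of the 3 enzymes passed the test, and their estimates lay on both sides of 0. Gpi1 makes fructose 6-phosphate from glucose 6-phosphate and lies at chr7:34201330-34230336 on the minus strand (GRCm38, the build called mm10). Its level was 954 to 1069.6 CPM (median 1019) in the second-run 6m mice and 820 to 1196 CPM (median 1073) at 28m, and the log2 fold change was 0.04 ± 0.08 (SE, adjusted p = 0.677, edgeR). The 28m values spread to both sides of the 6m values. Pfkm, the muscle phosphofructokinase that catalyses the committed step (chr15:98092589-98132451, plus strand), had 5308 to 6165 CPM (median 5874) at 6m and 3897 to 6415 CPM (median 5083) at 28m. It was the only one of the 10 with an estimate below 0, at -0.15 ± 0.10 (SE, adjusted p = 0.190, edgeR), and 6 of the 8 28m mice lay below the lowest 6m mouse. Aldolase A splits the hexose bisphosphate into triose phosphates. Aldoa (chr7:126795234-126800751, minus strand) had 17841 to 21406 CPM (median 18828) at 6m and 17091 to 24854 CPM (median 21864) at 28m, and its log2 fold change was 0.18 ± 0.09 (SE, adjusted p = 0.115, edgeR).

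The triose steps held both enzymes that passed the test. Triosephosphate isomerase, which interconverts the trioses that aldolase makes, is encoded by Tpi1 (chr6:124810586-124814296, minus strand). Tpi1 had 1675 to 2024 CPM (median 1989.8) at 6m and 1872 to 3122 CPM (median 2385) at 28m, a log2 fold change of 0.34 ± 0.12 (SE, adjusted p = 0.0243, edgeR). 6 of the 8 28m mice lay above the highest 6m mouse, led by replicates 3 and 5, and replicates 4 and 8 lay inside the 6m range. Gapdh (chr6:125161715-125166467, minus strand) encodes glyceraldehyde-3-phosphate dehydrogenase, the step that makes NADH, and its mRNA is widely used as a loading control. Gapdh had 3233 to 3663 CPM (median 3419) at 6m and 3599 to 4646 CPM (median 4029) at 28m, a log2 fold change of 0.26 ± 0.08 (SE, adjusted p = 0.0116, edgeR). Only replicate 8 of the 28m mice, at 3599 CPM, lay below the highest 6m mouse. Phosphoglycerate kinase makes the first ATP of the pathway. Its X-linked gene Pgk1 (chrX:106187100-106203699, plus strand) had 276 to 338 CPM (median 293) at 6m and 292 to 449 CPM (median 345) at 28m, and its log2 fold change of 0.23 ± 0.09 (SE, adjusted p = 0.0505, edgeR) fell just outside the threshold.

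Copies of these genes elsewhere in the genome limit what the counts hold. Of the 75-base windows of the Gapdh mRNA, 80.3% recur exactly in transcripts of 121 other annotated genes, and 67.5% of those of Pgk1 recur in transcripts of 4 others. The shares were 19.6% for Pkm, 14.8% for Gpi1, 5.38% for Ldha, 2.48% for Tpi1, 1.53% for Aldoa and 0 for Pfkm, Pgam2 and Eno3. Reads are 75 bases long and those placed at several sites were not counted, so reads of Gapdh and Pgk1 can be missing from the counts, while fold changes compare the same windows in all libraries.

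The lower part of the pathway, from phosphoglycerate mutase on, lay above 6m in all 4 estimates and passed the test in none. Pgam2 (chr11:5801640-5803733, minus strand), the muscle phosphoglycerate mutase, had 1572 to 1892 CPM (median 1755) at 6m and 1432 to 3123 CPM (median 2026) at 28m. Its 28m values reached both the largest rises and values under the lowest 6m mouse, and its log2 fold change was 0.33 ± 0.16 (SE, adjusted p = 0.0983, edgeR). Eno3 (chr11:70657202-70662513, plus strand), the muscle enolase, had 5744 to 7023 CPM (median 6287) at 6m and 6053 to 9516 CPM (median 7485) at 28m, a log2 fold change of 0.24 ± 0.10 (SE, adjusted p = 0.0520, edgeR). Pkm (chr9:59656368-59679375, plus strand) encodes pyruvate kinase, which makes the last ATP. Pkm had 3566 to 4268 CPM (median 4096) at 6m and 3739.8 to 5101 CPM (median 4404) at 28m, a log2 fold change of 0.13 ± 0.08 (SE, adjusted p = 0.217, edgeR). Ldha (chr7:46841475-46855627, plus strand) had 2668 to 3093 CPM (median 2882) at 6m and 2634 to 4662 CPM (median 3246) at 28m, a log2 fold change of 0.20 ± 0.11 (SE, adjusted p = 0.141, edgeR).

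The 28m mice differed more among themselves than the 6m mice did. The coefficient of variation of the 10 enzymes was 3.68% to 6.84% in the second-run 6m libraries and 9.28% (Gapdh) to 30.4% (Pgam2) at 28m. Replicates 3 and 5 were highest for most enzymes of the triose and lower steps and replicates 4 and 8 were low, so the order of the mice was shared.

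Which enzymes passed depended on the fit. DESeq2 called 4 higher (Tpi1, Gapdh, Pgk1 and Eno3, where 22.2% of all genes were higher), and a single fit of all 29 libraries, which takes its spread from the 24m libraries too, called 0 (21.2% of all genes; Gapdh 0.29, adjusted p = 0.123, and Tpi1 0.37, adjusted p = 0.0686, edgeR). Leaving out one library at a time gave 1 (without 6m replicate 3, Tpi1 0.31, adjusted p = 0.0519, edgeR) to 5 enzymes (without 28m replicate 4, 6 or 8).

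Fold changes at 28m followed gene length across the table, and 8 of the 10 enzymes lie below the median length. Over 12872 genes Spearman's rho between the log2 fold change and the exonic length was -0.54, across genes, which are not independent replicates. The median exonic length was 3110.5 bases for the 10 enzymes and 4488.5 for all tested genes, and the 9065 genes within the enzymes' length range had a median log2 fold change of 0.12. Among the 191 other genes of the 200 highest in counts, 52 were higher at 28m (27.2%) and their median was 0.04. These genes were not matched to the enzymes in length, and a relation to abundance was not tested. With a smooth trend over length and GC content removed from each library, 3 enzymes were higher and 1 was lower, where 19% of all genes were higher and 18.8% lower. Gapdh stayed at 0.27 (adjusted p = 0.00714, edgeR) and Gpi1 and Pkm, the pair above the median length, moved to 0.25 (adjusted p = 0.00699) and 0.30 (adjusted p = 0.0301). Tpi1 moved to 0.14 (adjusted p = 0.253), Pgk1 to -0.10, Eno3 to -0.14 and Pgam2, the shortest, to -0.26 (adjusted p = 0.0233, edgeR). Of the 10, Gapdh alone was higher both with and without the trend. The trend used exonic length, which counts the exons of all annotated transcripts of a gene. For Gapdh this was 4133 bases, against 1420 in its principal mRNA, which is shorter than that of Tpi1 (1607) or Eno3 (1564). For Gpi1 it was 6452 against 2884 and for Pkm 5001 against 2432. A trend over mRNA length was not fitted, so these results can depend on the length measure.

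**Figure D2:**
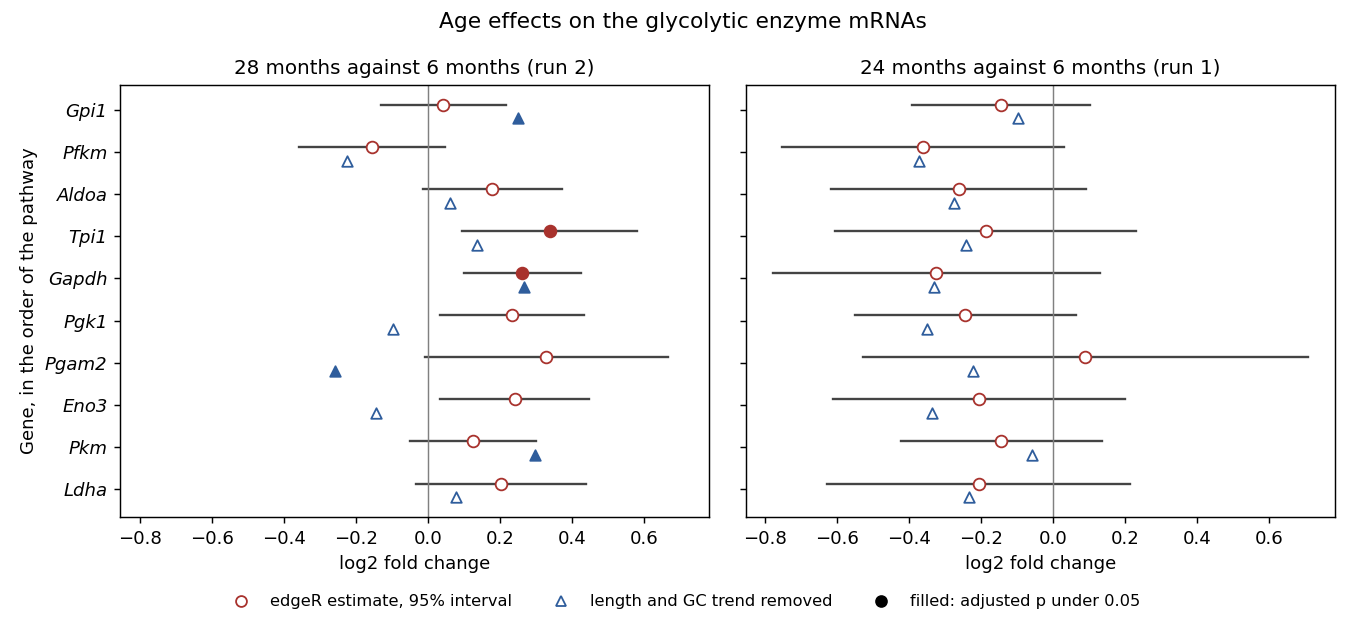
Log2 fold change (horizontal axes) of each enzyme in pathway order, at 28m (left) and 24m (right), as the edgeR estimate with its 95% interval (circles) and with the length and GC trend removed (triangles); filled symbols have an adjusted p under 0.05. Tpi1 and Gapdh are the filled circles at 28m, Pgam2 moves from 0.33 to -0.26 when the trend is removed, and no symbol is filled at 24m.

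The same relation to length ran through single libraries. Spearman's rho between gene length and a library's log2 distance to the median of the others of its group was -0.40 and -0.32 in 28m replicates 3 and 5, where the mean deviation of the 10 enzymes was highest (0.20 and 0.22 on the log2 scale). It was 0.47 and 0.52 in 28m replicates 4 and 8, where that mean was lowest (-0.23 and -0.18). In 28m replicate 7, with a rho of -0.42, the mean deviation was -0.03. In the second-run 6m libraries rho lay between -0.14 and 0.13. The part of this length relation in the enzymes' values was not tested beyond removing the trend.

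Because Tpi1 and Gapdh were the enzymes that passed at 28m, the 300 bases around their RefSeq start sites (GRCm38.p6, 250 bases before to 50 after the start, read 5′ to 3′ along the gene) are shown, with matches to 5 short motifs in capitals. The motifs, searched on both strands, were ACGTG (the core of the hypoxia response element), CACGTG (the E-box, which contains the motif before it), GGGCGG (the GC box), TATAAA, known as the TATA box of many start sites, and a further short element, CCAAT. Tpi1 lies at chr6:124814109-124814408 and Gapdh at chr6:125165724-125166023, both on the minus strand.
Tpi1: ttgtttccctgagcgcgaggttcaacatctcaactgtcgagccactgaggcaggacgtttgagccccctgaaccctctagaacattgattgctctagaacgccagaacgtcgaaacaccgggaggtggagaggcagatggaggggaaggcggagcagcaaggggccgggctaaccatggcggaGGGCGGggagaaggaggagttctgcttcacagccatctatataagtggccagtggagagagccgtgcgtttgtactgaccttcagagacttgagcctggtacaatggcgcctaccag
Gapdh: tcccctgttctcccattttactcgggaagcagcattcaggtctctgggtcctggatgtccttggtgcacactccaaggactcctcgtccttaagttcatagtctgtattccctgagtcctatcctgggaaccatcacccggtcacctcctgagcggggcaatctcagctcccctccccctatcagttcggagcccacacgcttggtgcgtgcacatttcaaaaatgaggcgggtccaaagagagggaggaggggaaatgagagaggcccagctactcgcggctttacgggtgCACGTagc
The capitals mark 1 GC box 67 bases before the start of Tpi1, and 1 ACGTG, read on the other strand, from base 43 after the start of Gapdh. Over all 10 enzymes 6 genes held ACGTG in at least 1 of their windows (8 of 17 windows, against 19.6% of all 32851 windows in the table), 6 held GGGCGG (7 of 17, against 35.7%), 5 held CCAAT (6 of 17, against 37.4%), 2, Pfkm and Ldha, held CACGTG (2 of 17, against 7.15%) and 0 held TATAAA (13.6% of all windows). Windows of the same gene can overlap, so the window counts can hold a site more than once, as for ACGTG in Aldoa. A match is a description of the letters in this window and not of a bound site.

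At 24m no enzyme passed the test in either direction, and 0 of the 10 had an unadjusted p under 0.05. This comparison called few genes at all, with 0.0611% of the 13103 tested genes higher and 0.0229% lower, and all 24m mice lay above all 6m mice for 0.389% and below them for 0.237%, among them none of the 10. The number called depended on the fit. Against 8 higher and 3 lower here, DESeq2 called 170 and 45 of 15367 genes, and the fit of all 29 libraries 133 and 19 of 13455. The estimate was below 0 for 9 enzymes, with a median of -0.21 against 0.03 over all genes tested. With all libraries Pfkm had the lowest, -0.36 (95% interval -0.75 to 0.03), with 2501 to 5967 CPM (median 4723) at 24m and 5641 to 6401 CPM (median 5898) in the first-run 6m mice. Gapdh followed with -0.33 (-0.78 to 0.13), at 1050.2 to 3837 CPM (median 2657) against 3175 to 3838 CPM (median 3350.1). The intervals of Aldoa (-0.26), Pgk1 (-0.24), Ldha (-0.21), Eno3 (-0.21), Tpi1 (-0.19), Gpi1 (-0.15) and Pkm (-0.14) also crossed 0. Pgam2 alone lay above, at 0.09 (-0.53 to 0.71). This order rested on 24m replicate 4. Without that library all 10 estimates were below 0 and 0 passed: Gapdh was at -0.18 and Pfkm at -0.26, while Pgk1, Eno3 and Tpi1 were at -0.30 and Ldha and Pgam2 at -0.29. Without the first-run library of 6m replicate 4 the estimates ran from -0.37 (Pfkm) to 0.19 (Pgam2), and 0 passed.

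The 24m mice also differed among themselves. Coefficients of variation ran from 18.1% (Gpi1) to 64% (Pgam2), against 4.84% to 18.8% in the first-run 6m libraries. Without replicate 4 of each group they ran from 15.9% (Gpi1) to 31.7% (Tpi1) at 24m, with Pgam2 at 27.4%, and from 3.46% (Gpi1) to 8.34% (Tpi1) at 6m, with Pgam2 at 5.07%. A single mouse, replicate 5, was the lowest of its group for Tpi1 (991 CPM), Pgk1 (184 CPM), Pgam2 (917 CPM), Eno3 (3111 CPM), Pkm (3141 CPM), Ldha (1420.2 CPM) and Aldoa (10835 CPM), and its mean deviation over the 10 enzymes was -0.59 on the log2 scale. Replicate 6 was above its group mean for all 10, by 0.42 on average.

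In 24m replicate 4 the enzymes parted. Gapdh was at 1050.2 CPM, against 2166 to 3837 CPM in the other 6 24m mice, Pfkm at 2501 CPM against 2969 to 5967 CPM, and Gpi1 at 700.5 CPM against 806 to 1139 CPM. Pgam2 was at 4833 CPM against 917 to 2154 CPM, Tpi1 at 2653 CPM against 991 to 2474 CPM, and Eno3 at 8143 CPM and Ldha at 3774 CPM were just above the other 24m mice. Relative to the median of the others this was 1.53 below on the log2 scale for Gapdh (-1.53) and 1.62 above for Pgam2. The span of its deviations over the 10 enzymes was the widest of the 29 libraries. Its rho with gene length was -0.41 and the library is the one that stood apart over all genes, so its part in the 24m values was measured by leaving it out. Without it 0 of the 10 passed at 24m and the median of the enzymes was -0.27. With replicate 5 left out instead, the lowest mouse for most enzymes, the median was -0.10.

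**Figure D3:**
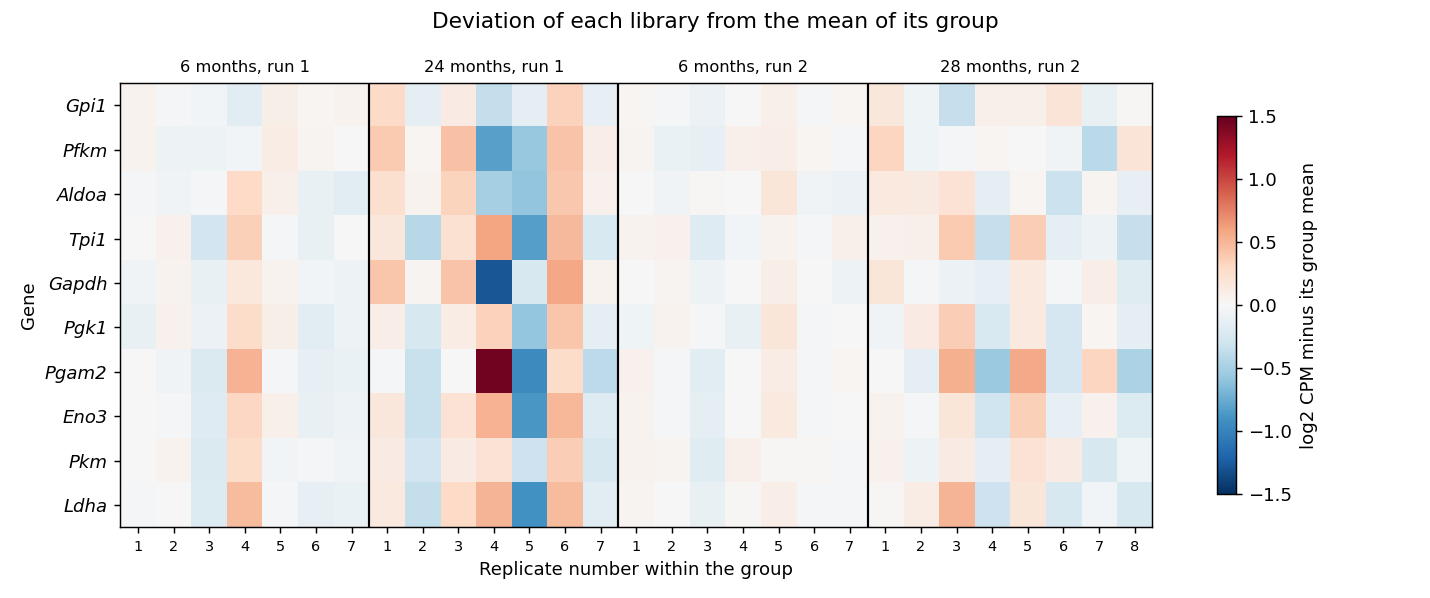
Log2 CPM of each enzyme (rows, in pathway order) minus the mean of its group, in each of the 29 libraries (columns, by group and replicate), red above and blue below the mean. Both colours occur in many columns, 24m replicates 5 and 6 are each of 1 colour in every row, and 24m replicate 4 runs from -1.25 (Gapdh) to 1.48 (Pgam2).

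Whether the effect at 28m differed from that at 24m was tested directly, as the difference of the 2 age effects in a fit of all 29 libraries. The difference was above 0 for all 10, from 0.21 (Gpi1) to 0.61 (Gapdh), and passed for 0 of them (lowest adjusted p = 0.398, edgeR). No gene of the 13455 tested passed in this fit (0% higher and 0% lower), although 1611 genes, 5 of the enzymes among them, had an unadjusted p under 0.05, and limma-voom also called 0. This count turned on 1 library. Without 24m replicate 4 the difference passed for 3 enzymes, Tpi1 (0.66, adjusted p = 0.0479), Gapdh (0.47, adjusted p = 0.0394) and Pgk1 (0.57, adjusted p = 0.0393, edgeR), where 8.92% of all genes were higher.

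The repeat libraries of the 6m mice give the error of the measurement itself. No enzyme differed between the second and the first libraries of the 7 mice in a fit with the mouse as a term, nor did any of the 12884 genes (0% higher and 0% lower by edgeR, 0 by DESeq2, and 1052 genes with an unadjusted p under 0.05, 0 of them enzymes). The paired values of 6 mice lay within -0.12 and 0.09 on the log2 scale for all 10 enzymes. Mouse 4 was the exception, with differences from -0.63 (Pgam2) to 0.17 (Gpi1), and its difference of -0.54 for Tpi1 was larger in size than the 28m effect of that gene, 0.34. Such repeats measure the error of a library and not the spread between mice. Its first-run library had 2696 CPM of Pgam2, against at most 1871 CPM in the other 6, and 4437 CPM of Ldha, against at most 3173 CPM, and its rho with gene length was -0.55. Without this mouse Gapdh passed at 0.06 (adjusted p = 0.0395, edgeR, where 0.798% of genes were higher), beside 0.26 at 28m. Set against the first-run 6m libraries, the 28m effect of Gapdh was 0.29 (adjusted p = 0.0248) and that of Tpi1 0.24 (adjusted p = 0.169, edgeR).

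The enzymes varied together from mouse to mouse. Over the 45 pairs, Pearson's r of the log2 deviations from the group means in 29 libraries had a median of 0.54 and ran from -0.28 (Gapdh with Pgam2) to 0.97 (Tpi1 with Eno3), with Tpi1 and Ldha also at 0.97. Without 24m replicate 4 the median was 0.68 and the lowest 0.07. The points share library scaling and the length relation given above, so this describes the libraries and carries no test. Eno3 (0.92), Ldha (0.91), Tpi1 (0.89) and Pgk1 (0.87) followed the mean of the other 9 most closely, and Gapdh (0.25), Gpi1 (0.27) and Pfkm (0.36) least. Without 24m replicate 4 Gapdh rose to 0.75, Pfkm to 0.60 and Gpi1 to 0.36. The genes outside the lists whose deviations were most like the enzymes' mean, over the same 29 libraries, were Myoz1 (r = 0.94), Rpl3l (0.93), Ak1 (0.93), Polr2m (0.90) and Atp5a1 (0.86). Myoz1 encodes a Z-disc protein of fast fibres, Rpl3l a muscle ribosomal protein, Ak1 the muscle adenylate kinase and Atp5a1 a subunit of ATP synthase.

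Genes of the rest of the pathway and of its surroundings passed in both directions at 28m. Their counts are read beside the 24.3% of all tested genes that were higher and the 22.9% that were lower. Of the other enzyme forms 10 of 17 had enough counts to test, and 0 were higher and 2 (20%) lower. Hk1, the hexokinase found in most tissues, was lower at -0.51 (adjusted p = 0.0149), and Hk2, the muscle form, which held 94.7% of hexokinase mRNA per kilobase at 6m, was at -0.21 (adjusted p = 0.0790, edgeR).

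Among 13 tested genes of side branches and of flux control, 1 was higher (7.69%) and 3 were lower (23.1%, close to the 22.9% of all genes). Gpd1, the cytosolic dehydrogenase that turns a triose phosphate into glycerol 3-phosphate, had 761 to 856 CPM at 6m and 395 to 734 CPM at 28m, without overlap (-0.55, adjusted p = 0.00285, edgeR). Its mitochondrial partner Gpd2 was lower by a similar amount (-0.51, adjusted p = 0.00809), and Pfkfb3 was lower by more (-1.10, adjusted p = 0.0306, edgeR), which makes the activator fructose 2,6-bisphosphate. Fbp2, the muscle fructose bisphosphatase that opposes phosphofructokinase, was higher (0.57, adjusted p = 0.0325, edgeR).

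Of 18 genes of lactate and pyruvate transport and of the pyruvate dehydrogenase complex, 3 were higher (16.7%, beside 24.3% of all genes) and 6 lower (33.3%, beside 22.9%). Slc16a3, the lactate exporter MCT4 of fast fibres, had 473 to 675 CPM at 6m and 308 to 477 CPM at 28m, with values that barely overlapped (-0.50, adjusted p = 0.00199, edgeR). Pdpr, a regulatory subunit of pyruvate dehydrogenase phosphatase, was lower as well (-1.75, adjusted p = 0.0225, edgeR). So was Slc16a7, another monocarboxylate transporter (-1.02, adjusted p = 0.0139, edgeR), but it had only 2 to 22 counts in a library, so that counting error weighs on its values. Its mean was 0.55 CPM in the second-run 6m libraries, 0.27 CPM at 28m and 0.38 CPM in the first-run libraries of the same 6m mice, and it had too few counts to be tested at 24m or at 28m against those libraries. Both subunits of the mitochondrial pyruvate carrier were higher, Mpc2 by 0.50 (adjusted p = 0.0297) and Mpc1 by 0.23 (adjusted p = 0.0396), as was Pdp1 (0.63, adjusted p = 0.00167, edgeR), the catalytic subunit of the phosphatase that activates pyruvate dehydrogenase. Both carrier subunits depended on the fit. Mpc1 was at -0.14 with the length and GC trend removed and at 0.08 (adjusted p = 0.605) against the first-run 6m libraries, and Mpc2 had an adjusted p of 0.0543 with limma-voom, 0.111 in the fit of all 29 libraries and 0.258 against the first-run 6m libraries (edgeR in the last 2).

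Transcription factors and cofactors known to act on glycolytic genes were lower in 9 and higher in 2 of 16 cases (56.2% and 12.5%, beside 22.9% and 24.3% of all genes), with a median of -0.37. Mlxip, a glucose sensor, had 122 to 145 CPM at 6m and 35.2 to 98.4 CPM at 28m (-1.14, adjusted p = 0.000679, edgeR). Eya1 (-0.89, adjusted p = 0.000680) and Six4 (-0.84, adjusted p = 0.00233), which act on fast-fibre genes, likewise had no 28m mouse inside the 6m range. Hif1a, the oxygen-regulated factor, did not pass (-0.13, adjusted p = 0.215), while Epas1, a relative best known from vessel cells, was lower (-0.62, adjusted p = 0.00261, edgeR). Myc (0.95, adjusted p = 0.00766) and Egln3 (0.57, adjusted p = 0.0196, edgeR), an oxygen-dependent hydroxylase, were higher.

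**Figure D4:**
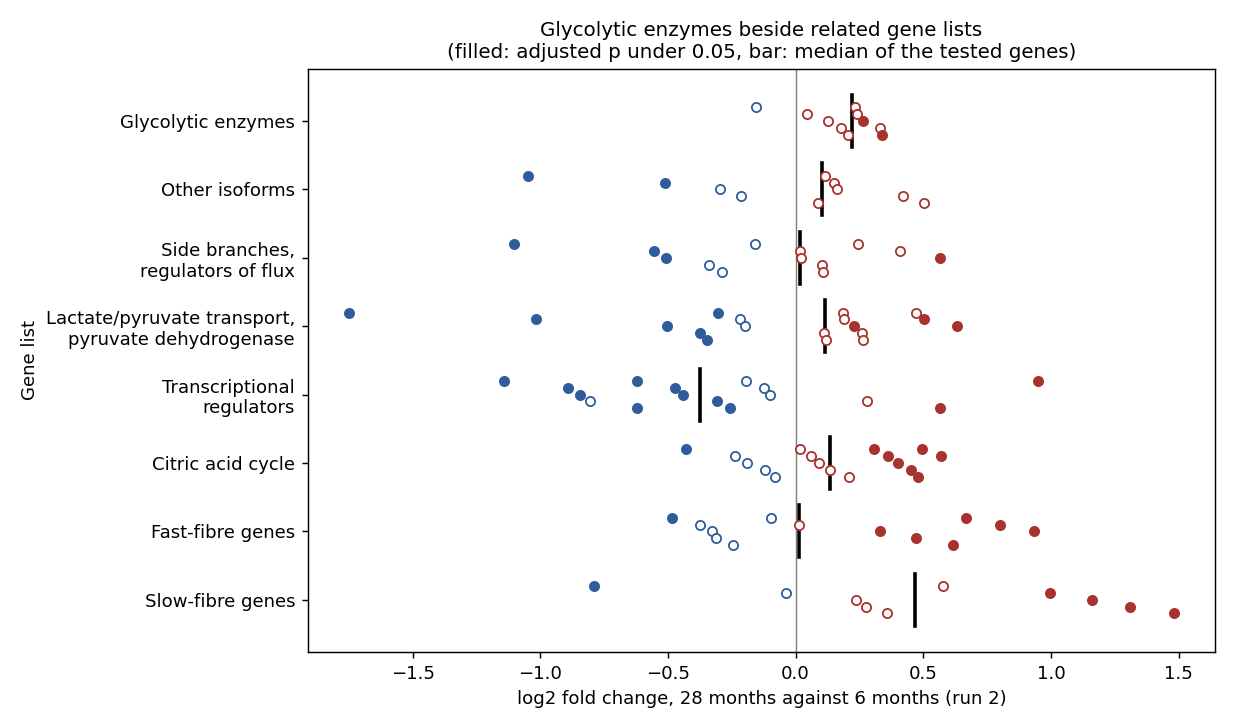
Log2 fold change at 28m against 6m (horizontal axis) of each tested gene of the 10 enzymes and of related lists (rows), red above and blue below 0, filled where the adjusted p was under 0.05, with a bar at the median of each list. The enzymes lie between -0.15 and 0.34, a narrow span beside the regulators, whose median is -0.37.

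The citric acid cycle, which takes up the pyruvate that is not made into lactate, was set beside glycolysis. There 7 of 17 genes were higher (41.2%, beside 24.3% of all genes) and 1 was lower (5.88%, beside 22.9%), with a median of 0.14. The difference between the lists was not tested. Idh2 (0.57, adjusted p = 0.0281), Sdhb (0.50, adjusted p = 0.0185) and Sdhc (0.48, adjusted p = 0.0105) had the largest rises and Ogdh (-0.43, adjusted p = 0.0274, edgeR) was lower.

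Markers of fibre type and of other cells moved at 28m too. Of 13 fast-fibre genes 6 were higher (46.2%, beside 24.3% of all genes) and 1 was lower (7.69%, beside 22.9%), among them Mylpf, the fast regulatory light chain (0.93, adjusted p = 0.000648, with all 28m above all 6m mice), Tnni2 (0.80, adjusted p = 0.00541) and Tnnc2 (0.67, adjusted p = 0.0126, edgeR), while Myh4, the myosin of the fastest fibres, fell by 0.48 on the log2 scale (adjusted p = 0.0119, edgeR). Of 10 slow-fibre genes 4 were higher (40%), led by Myl2 (1.48, adjusted p = 0.00532), Tnni1 (1.31, adjusted p = 0.0270) and Tnnc1 (1.16, adjusted p = 0.00418), and Myh7b (-0.79, adjusted p = 0.0177, edgeR) was lower (10%). The enzymes' summed CPM was 24.0% ± 1.0 (SD, n = 7) of that of the fast-fibre genes in the second-run 6m mice and 27.5% ± 3.30 (SD, n = 8) at 28m. Endothelial markers were lower in 5 of 6 cases (83.3%, beside 22.9% of all genes), with a summed level of 369 to 404 CPM at 6m and 183 to 292 CPM at 28m, and markers of fibro-adipogenic cells in 4 of 6 (66.7%; 543 to 2802 CPM and 320 to 1138 CPM). None of 6 macrophage markers and of 3 tested erythrocyte markers passed, and 1 of 6 was higher for adipocytes (Retn), for tendon cells (Scx) and for Schwann cells. The summed level of the tendon markers was lower on average at 28m, 217 ± 110 CPM against 275 ± 66.6 CPM at 6m (SD), with overlap. For adipocytes these values were 76.1 ± 62.2 and 33.6 ± 12.8 CPM, and for Schwann cells 58.8 ± 10.8 and 60.5 ± 5.99 CPM. The part of these shifts in the enzymes' values was not tested.

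Many of these calls on single genes outside the 10 enzymes depended on the fit. The list shares above come from the main fit and were not recounted with the length and GC trend removed. Markers of other cells were not examined that way either. Of the 29 genes of the pathway and fibre lists with the largest changes at 28m, 18 still passed with the length and GC trend removed, among them Gpd1, Mlxip, Eya1, Six4, Mylpf and Myl2. The others were Hk1, Pfkfb3, Fbp2, Slc16a7, Mpc1, Egln3, Idh2, Sdhb, Myh7b, Tnni2 (0.33, adjusted p = 0.0576) and Tnnc2 (0.01, adjusted p = 0.935, edgeR). Against the first-run 6m libraries 13 of 28 passed, Slc16a7 not being tested. Those that did not were Hk1, Pfkfb3, Fbp2, Pdpr, Mpc1, Mpc2, Ogdh, Idh2, Sdhb, Sdhc, Myh4, Myh7b, Tnni1, Tnni2 (adjusted p = 0.0513) and Tnnc2 (adjusted p = 0.142, edgeR).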

How the data were processed

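RNA-seq of 29 tibialis anterior libraries was used, all with a group in the labels. Per the labels and the study's methods, poly-A RNA was made into NEBNext Ultra II libraries and read as single 75-base reads, and the authors used bcl2fastq 2.20 and STAR 2.5.4b on mm10 to obtain the deposited counts, which are raw read counts per gene of uniquely placed reads. Which strand setting was counted is not given in the sources used here. The total input stated in the labels and in the methods differs. Their own tests used DESeq2 1.22.2 in R 3.5.1. No column of the table was left unmapped (0).

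Here edgeR 4.0.16 (R 4.3.3) was run on the counts with filterByExpr, TMM scaling, the quasi-likelihood test and Benjamini-Hochberg adjustment over all genes tested, with 28m against the second-run 6m, 24m against the first-run 6m, the difference of these effects over 29 libraries, and second against first 6m libraries with the mouse as a term. Within a group, replicates are separate mice. The fits of all 29 libraries counted both libraries of a 6m mouse as if they came from separate mice. The 6m libraries are paired across runs because their titles name the same mouse: their deviations from the group means correlated at 0.46 to 0.81 over all genes in 6 mice and at 0.22 in mouse 4. Levels in CPM are scaled within each comparison, and intervals are 95%. DESeq2 1.42.0 and limma 3.58.1 (voom), other scalings, other filters, removal of a length and GC trend and leaving out libraries served as alternatives. Library totals of 17633475 to 33499162 counts limited precision little for these genes. The fits were tested on simulated data.

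GENCODE M21 (GRCm38) gave positions, exonic lengths and principal mRNAs: 20205 table symbols matched directly, 1880 through RefSeq synonyms and 452 not at all. Promoter windows are from RefSeq (GRCm38.p6). The named genes are all 10 enzymes, up to 3 genes per direction with the largest change among those past the threshold at 28m in each related list, any past it at 24m, and the 5 genes most like the enzymes' mean. Hif1a, Epas1, Hk2, Retn and Scx were added after their values were seen. Some genes counted in the lists are not reported here by name. The enzymes and all lists were chosen with earlier results of these data known. Adjusted p-values that compare groups measure the spread between mice.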

Additional observations from a re-analysis of the deposited data

Results flagged for a closer look

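Single libraries lay far from the rest of their group, by Dixon's test at the 95% level, in 6 of 44 sets tested (each enzyme and the summed share, in each of 4 groups); chance flags about 1 in 20. In the first run, 6m replicate 4 was highest for Pgam2, at 2696 CPM with the next at 1871 CPM, for Ldha, at 4437 CPM with the next at 3173 CPM, and for the share of counts held by the 10 enzymes, at 5.71% with the next at 4.98%. The second-run library of the same mouse was not singled out in any set. 24m replicate 4 was highest for Pgam2, at 4833 CPM with the next at 2154 CPM. In the second run, 6m replicate 5 was highest for Aldoa, at 21406 CPM with the next at 19224 CPM, and 6m replicate 3 lowest for Pkm, at 3566 CPM with the next at 4001 CPM.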

How the results depend on the processing

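The 28m count of 2 enzymes higher was 4 with DESeq2, with DESeq2 size factors, with upper-quartile scaling and with a minimum of 10 counts in every library. It was 3 with library totals and with the length and GC trend removed, and 2 with limma-voom and with no filter. It was 1 against the first-run 6m libraries, 1 against these without replicate 4 (an alternative chosen after seeing the data) and 0 in the fit of all 29 libraries. The count of enzymes lower went from 0 to 1 with the length and GC trend removed. Leaving out one library at a time gave 1 to 5 higher at 28m, 0 at 24m, 0 to 3 for the difference of the age effects (3 without 24m replicate 4) and 0 to 1 for second against first 6m libraries (1 without mouse 4). Without both libraries that stood apart the difference passed for 0 genes. Direction turned with the trend removed for Pgk1 (-0.10), Pgam2 (-0.26), Eno3 (-0.14) and Mpc1 (-0.14) at 28m, for Pgam2 at 24m (-0.22) and in the difference (-0.00096), and between the 6m libraries for Pfkm (0.0066), Pgam2 (0.018) and Eno3 (0.00059). Pgam2 at 24m also turned with limma-voom (-0.079), without both libraries that stood apart (-0.18, chosen after seeing the data) and, leaving out one library at a time, over -0.29 to 0.22. Between the 6m libraries, leaving out one mouse gave -0.019 to 0.0072 for Pfkm and -0.095 to 0.024 for Pgam2. The cause was not tested. With the mouse as a replicate block in limma-voom the median difference of the age effects over the enzymes was 0.47, as without the block (0.47), and leaving the block out of the comparison of 6m libraries moved their median from -0.06 to -0.07. The block changed no call, but these fits called no gene with it or without it. The fit without 24m replicate 4 was not repeated with the block. Among 675 fold changes and counts of enzymes recomputed under settings other than leaving out one library, 599 were classed as unchanged. For a fold change this meant the same direction and side of the threshold, and for a count a similar size. They include the 24m values, where no enzyme passed in the main fit. Counting error was small beside the spread between mice for these genes.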
